A study of Strongylocentrotus purpuratus and Patiria miniata with 14 samples.

Results

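Some stretches of the bat sea star genome (*Patiria miniata*) were accessible in every embryo library that was profiled, from blastula to larva. They were found by merging the ATAC-seq peaks of all 6 sea star libraries wherever they overlapped by at least 1 bp, and keeping merged regions that had a peak in all 6 lists and were under 1000 bp long. Of 105823 merged regions, 28399 (26.8%) met this rule. They are called all-list members here, a name for where peaks were called and not for their height. They were chosen by the positions of the called peaks, so presence in every library and a length under the limit are not findings. The rule did not use the height of the peak beyond its having been called, but a call is itself a cut on signal strength.

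ATAC-seq uses a transposase that inserts sequencing adapters where DNA is not covered by nucleosomes, so a pile of insertions marks open chromatin. Open regions include promoters, where transcription starts, and distal cis-regulatory elements (CREs), which bind transcription factors and act on genes at a distance. In well studied animals, regions that stay open through development and across cell types are often promoters of broadly expressed genes or sites of architectural proteins, while many enhancers are open only at some stages or in some cells.

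The sea star libraries came from wild type whole embryos at 24, 66 and 90 h post fertilization (hpf), which the study calls mesenchyme blastula, late gastrula and bipinnaria larva, with 2 replicates per stage. No source used here says whether the replicates were separate cultures, so p-values measure the spread between these libraries, which may be technical. In a whole embryo, a region open in more cells and one more open per cell cannot be told apart. Peaks were called in each replicate separately on the Pmin_3.0 assembly, and a list ends at the threshold of the peak caller. The lists held 56044 to 72079 peaks. They give no read totals, but each peak's fold enrichment and p-value together fix the number of extended reads stacked at its summit (the pileup) and the coverage expected there. This pileup came out whole to within 0.01 reads for 100% of the peaks in each of the 6 lists. The coverage expected from the genome-wide average was 1.72 and 1.61 reads in the 24 hpf libraries, 1.27 and 1.11 at 66 hpf, and 1.62 and 1.93 at 90 hpf. The deepest library, 90 hpf replicate 2, was therefore 1.73 times as deep as the shallowest, 66 hpf replicate 2.

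Regions fell mostly into 2 classes, those listed once and those listed everywhere. Of the merged regions, 31671 (29.9%) had a peak in a single list, 16606 in 2, 10312 in 3, 9928 in 4, 8183 in 5 and 29123 (27.5%) in all 6. The length limit removed 724 of the latter (2.49%). Just inside the limit lay 3 members of 999 bp, on NW_024037047.1 (30463471 to 30464469), NW_024037059.1 (3217248 to 3218246) and NW_024037067.1 (1672869 to 1673867). Just outside it lay 3 regions of 1000 bp, on NW_024037050.1 (855697 to 856696), NW_024037069.1 (39029108 to 39030107) and NW_024037072.1 (38228043 to 38229042). The all-list members took up 41.9 to 54.5% of the peaks of a list. They held 90.3 to 94.3% of its strongest 10% by fold enrichment and 13.4 to 25.9% of its weakest 10%. A call in all 6 lists already favours strong peaks, so this lean follows in part from the rule. Regions absent from a single list and under the limit numbered 8177. The absent list was 90 hpf replicate 1 for 22.3% of them, 24 hpf replicate 1 for 20.3% and 66 hpf replicate 1 for 17.6%. It was 24 hpf replicate 2 for 16.5%, 66 hpf replicate 2, the shallowest library, for 15.6%, and 90 hpf replicate 2, the deepest, for 7.83%. The shares thus did not follow depth throughout.

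All-list members were wider than regions of fewer lists. Their merged width had a median of 432 bp, with the middle 50% between 343 and 574 bp and a range from 110 to 999 bp. Regions of 1, 3 and 5 lists had medians of 123, 264 and 323 bp, and a merged region of more lists can only be as wide or wider than its peaks. Within a single library, the peaks inside a member covered a median of 332 to 366 bp. The stretch covered in all 6 libraries had a median of 257 bp, or 63.8% of the merged width, among the 27964 members that had one. The other 435 members (1.53%) had no bp common to the 6 lists and were joined only through overlapping neighbours. An example is a member of 431 bp on NW_024037055.1 (4115146 to 4115576), at the start of a gene of the ABCC4 transporter orthogroup (LOC119723529). In all, all-list members covered 13.4 Mb, or 2.22% of the 605.7 Mb between the scaffold starts and the last peaks on them.

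**Figure D1:**
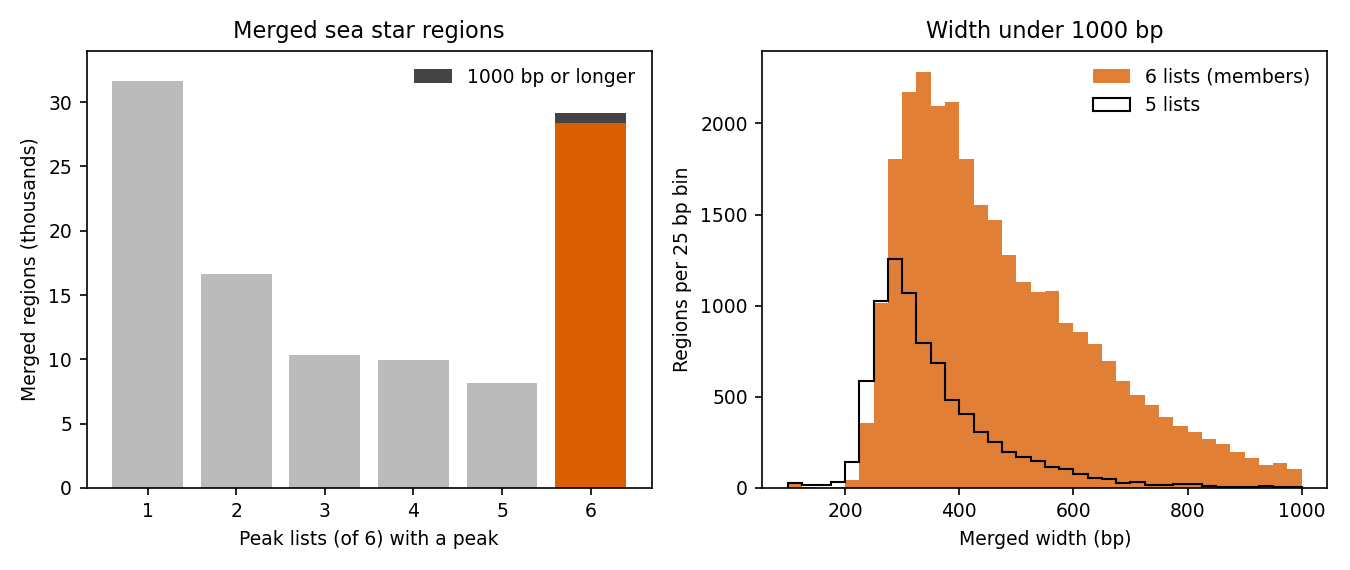
Left, the number of merged sea star regions (y axis, in units of 1000 regions) by the number of peak lists with a peak, with regions of 1000 bp or longer in dark grey and the 28399 all-list members in orange. Right, the merged width (bp, bins of 25 bp) of all-list members and of regions with a peak in 5 lists, where the members' median is 432 bp.

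Most all-list members were simple regions with one peak. In 22744 of them (80.1%) each list had a single peak, in 5597 (19.7%) some list had several, and in 58 every list had several. Where a list had neighbouring peaks in a member, their summits lay a median of 305 to 318 bp apart in the 6 libraries.

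The summit, the point of strongest signal, varied by at most 100 bp between lists in most members. Overlapping peaks in a region under 1000 bp already limit how far apart summits can lie. Taking the strongest peak of each list, the 6 summits of a member spanned a median of 83 bp, with the middle 50% between 51 and 131 bp. The span was at most 50 bp in 24.5% of members, at most 100 bp in 59.3% and at most 200 bp in 91.9%. It was at most 10 bp in 765 members (2.69%). Members with a single peak in every list had a median of 79 bp and a 95th percentile of 183 bp, against 290 bp over all members. The summit span was 115, 98, 78 and 53 bp from the lowest to the highest 25% of members by pileup.

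Summits agreed slightly better between replicates than between stages. The mean distance between the summits of a member was 42.7 bp for the 24 hpf replicates, 42.8 bp for the 66 hpf replicates and 43.2 bp for the 90 hpf replicates. All 12 pairs of libraries from different stages were farther apart, from 44.5 to 50.1 bp. The means were 42.9 bp within stages and 47.5 bp across stages, a difference of 4.56 bp (exact one-sided permutation test over the 15 ways to pair the libraries, p = 0.0667, the smallest p this design allows). Across the longest interval, 24 against 90 hpf, the mean was 49.3 bp, against 46.6 bp for adjacent stages, a difference of 2.65 bp (exact one-sided permutation test over 45 arrangements, p = 0.0444). Most of the 45 arrangements also split the replicates of a stage. This p therefore mixes the likeness of replicates with the order of stages and does not measure that order alone. With the median distance in place of the mean this second difference was 1.25 bp and no longer passed (exact permutation p = 0.156). The replicate mean of 42.9 bp was itself most of the distance across stages.

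The rank of a member's height in its own list showed the same order with a wider gap. Height was taken as the percentile of the strongest peak's fold enrichment within its list. Fold enrichments of different depths are then not compared directly, but a percentile still depends on how many weak peaks the list holds. The members' median percentile was 70.5 in 66 hpf replicate 1, the shortest list, and 75.7 in 90 hpf replicate 2, the longest. The part of list length in the differences below was not tested. Replicates differed by a mean of 8.37 percentile points at 24 hpf, 9.15 at 66 hpf and 9.06 at 90 hpf, and libraries of different stages by 10.6 to 14.5. The means were 8.86 and 12.9 points (difference 4.0, exact one-sided permutation test, p = 0.0667, the smallest possible). Libraries of 24 and 90 hpf differed from each other by 14.1 points and those of adjacent stages by 12.2 (difference 1.90, exact one-sided permutation test, p = 0.0444). Ranked by pileup instead, the difference was 2.45 points (exact permutation p = 0.0222, the smallest possible). As for summits, most arrangements split replicates, so neither p measures the order of stages alone.

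**Figure D2:**
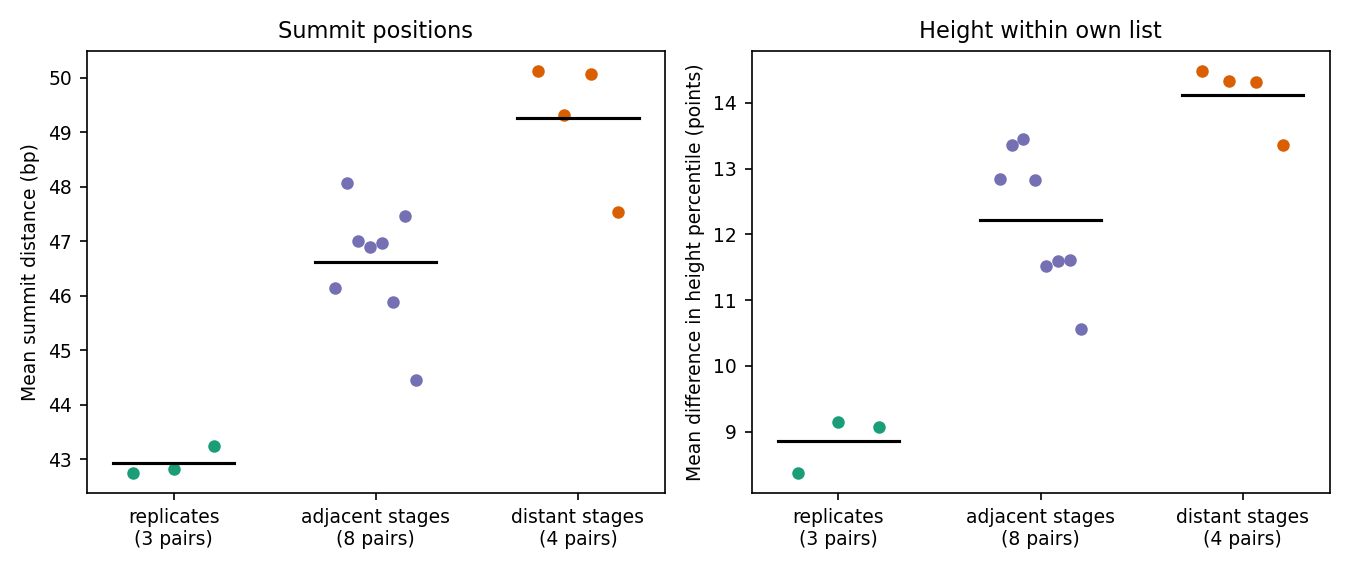
Each point is a pair of libraries, grouped as replicates (3 pairs), adjacent stages (8 pairs) and 24 against 90 hpf (distant stages, 4 pairs), and bars are group means. Left, mean distance between summits of a member (bp), right, mean difference in height percentile (points); both axes start above 0, and the 3 replicate pairs lie lowest on each.

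A small set of members ranked near the top of every list. The first by its lowest percentile lay on NW_024037051.1 from 11880869 to 11881412 (544 bp). Its fold enrichment was 26.0 and 25.7 at 24 hpf, 26.0 and 26.5 at 66 hpf, and 27.5 and 24.8 at 90 hpf, with pileups of 91, 94, 105, 87, 108 and 101 reads. Its 6 summits fell within 2 bp, and its nearest fellow member was 29231 bp away. The next 4 lay on NW_024037074.1 (39029899 to 39030372), NW_024037070.1 (3722078 to 3722587), NW_024037061.1 (7305502 to 7305906) and NW_024037049.1 (4809549 to 4809978). Over these 5 members, fold enrichment ranged from 22.5 to 28.1, summits spanned 2 to 56 bp and the nearest member was 9060 to 29231 bp away. Over all members the median fold enrichment was 6.97 to 7.71 in the 6 libraries and the median pileup 28 to 42 reads.

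All-list members were unevenly spaced over the genome, and most had no other member within 1000 bp. Gaps between neighbouring members had a median of 7491 bp and a mean of 20353 bp. The nearest other member was a median of 3156 bp away (middle 50%, 934 to 8240 bp). It was within 1000 bp for 26.3% of members and within 10 kb for 79.6%. Among all merged regions, which are more numerous, 55.2% had another merged region within 1000 bp. Joining members less than 1000 bp apart left 20945 members alone, 2891 pairs, 418 runs of 3 and 99 runs of 4 or more. The longest run held 7 members in 4501 bp on NW_024037074.1 (24467384 to 24471884), and its members had a median percentile of 31.9 by fold enrichment, against 70.1 over all members, and of 71.8 by pileup, against 70.7. The expected local coverage there was 4.93 times the genome-wide level, in the median, against 2.154 times over all members. Regions of fewer lists were also found nearer to a member the more lists they had. The median distance to the nearest member was 6492 bp for regions of 1 list, 5024 bp for 3 lists and 4276 bp for 5 lists.

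The relation between spacing and height turned around with the measure of height. By fold enrichment, isolated members were the stronger. From the lowest to the highest 25% of members, the median distance to the nearest member was 1683, 2736, 3494 and 6621 bp. By pileup, isolated members were the weaker, at 5876, 3440, 2364 and 1837 bp. Fold enrichment divides the pileup by the coverage expected locally, for which the peak caller also reads the surrounding sequence, so that neighbouring open regions enter it. The expected local coverage was 3.18 times the genome-wide level, in the median, for members with another member's summit within 1 kb, 2.44 times at 4 to 5 kb, 1.72 times at 5 to 6 kb and 1.2 times at 20 to 50 kb. Median fold enrichment rose in a step at that point, from 6.98 in the 1640 members at 4 to 5 kb to 8.25 in the 1685 members at 5 to 6 kb. Each of the 6 libraries showed the step. Over the same bins the mean pileup of a member went from a median of 32.3 to 29.7 reads, and it was lower in the farther bin in each of the 6 libraries. No test was run over regions, which are not replicates.

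**Figure D3:**
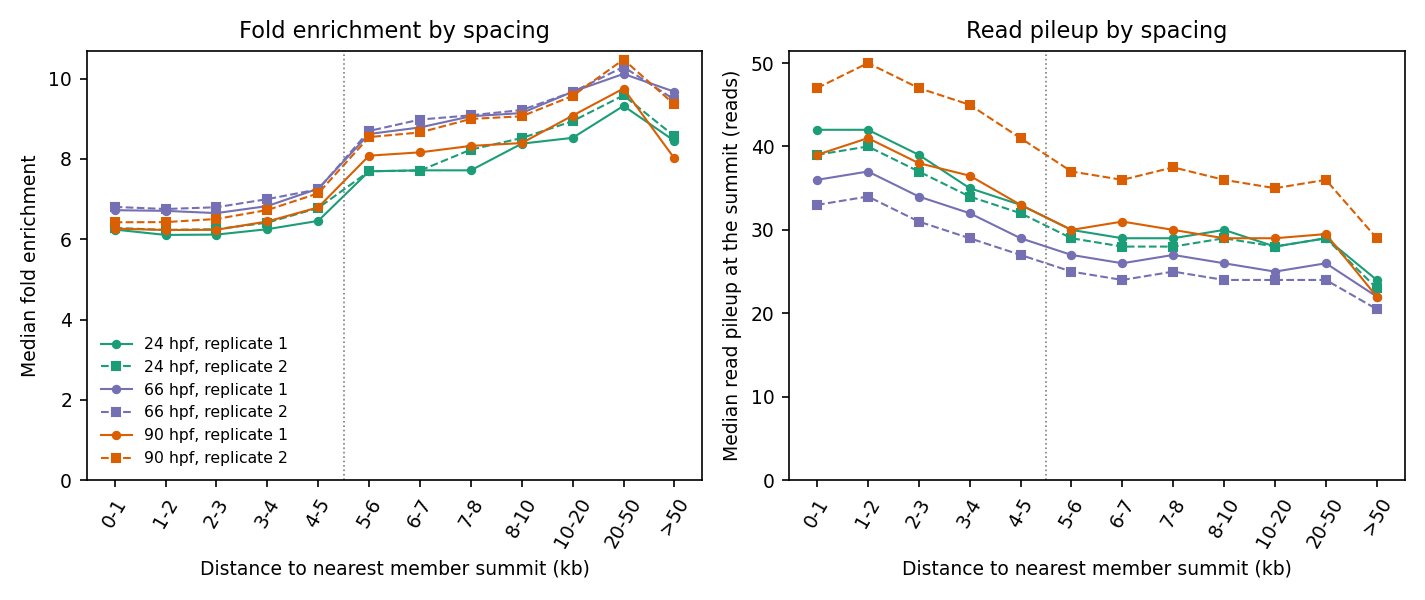
Median fold enrichment (left) and median read pileup at the summit (right) of all-list members, by the distance from their summit to that of the nearest member (kb), with a line for each of the 6 libraries. The dotted line marks 5 kb, where fold enrichment steps up in all 6 libraries while pileup does not.

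Members were unevenly divided among the 30 scaffolds. The overall density was 46.9 per Mb and the median scaffold had 49.6. The highest were NW_024037060.1 with 63.0 per Mb (523 members), NW_024037066.1 with 63.0 (625 members) and NW_024037063.1 with 62.4 (1440 members). The lowest were NW_024037064.1 with 14.4 per Mb (232 members), NW_024037065.1 with 20.9 (206 members) and NW_024037052.1 with 26.5 (373 members). The ratio of highest to lowest was 4.36 for all-list members and 2.98 for the other merged regions, which ranged from 56.2 to 167 per Mb. NW_024037064.1 was lowest in both. Counted in 592 windows of 1 Mb, members had a median of 47, with 10 and 82 at the 10th and 90th percentiles. The densest window held 128 members (NW_024037076.1, 23000001 to 24000000), and 3 windows held none, of which the first 1 Mb of NW_024037052.1 had no merged region at all. The longest stretches without a member were 1438 kb on NW_024037059.1 (12117341 to 13555436), 1342 kb on NW_024037051.1 (13511564 to 14853824) and 1213 kb on NW_024037075.1 (12389373 to 13601988). They held 34, 8 and 44 regions of fewer lists or over the length limit. Sequence that cannot be mapped uniquely would leave such gaps too, and its part was not tested.

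**Figure D4:**
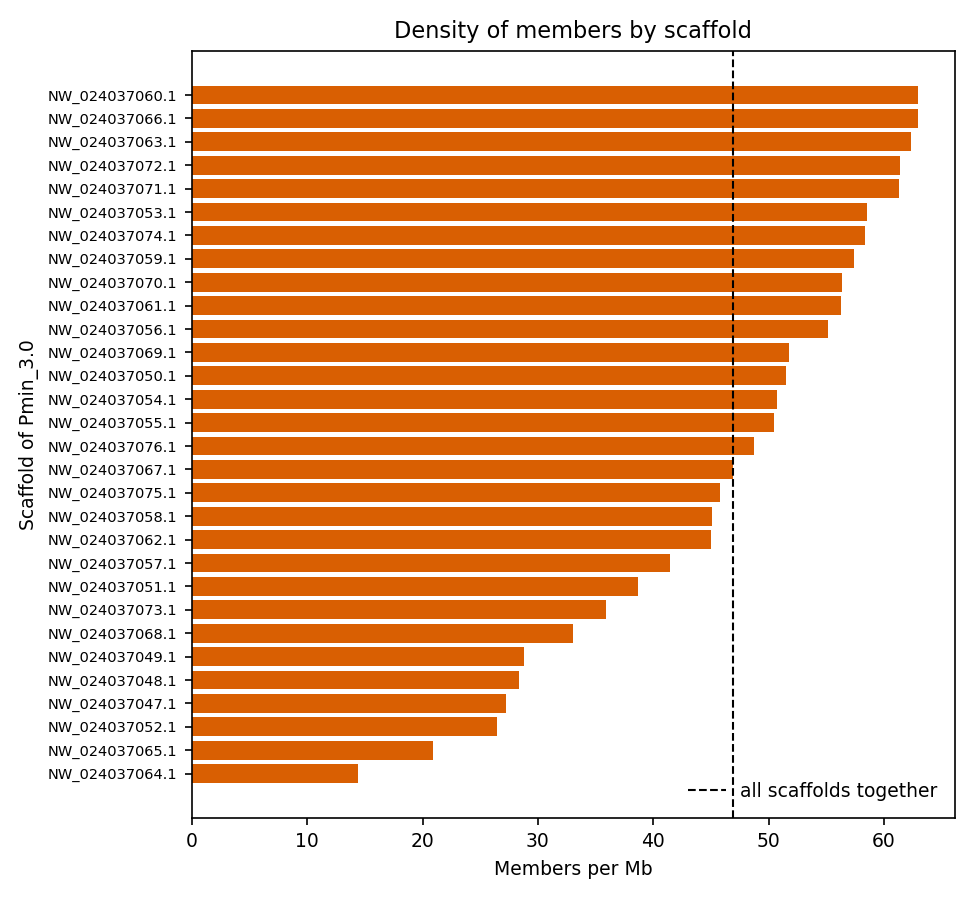
All-list members per Mb on each of the 30 scaffolds of Pmin_3.0, with scaffold length taken as the end of the last peak on it and the dashed line at the overall density of 46.9 per Mb. Densities run from 14.4 on NW_024037064.1 to 63.0 on NW_024037060.1.

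Although present throughout, some members changed in height as development went on. Differences between stages were tested with limma on log2 fold enrichment, centred on the median of each library, over all 29123 regions with a value in every list, with Benjamini-Hochberg adjustment and a threshold of 0.05. Of the all-list members, 2614 (9.20%) differed between stages, against 9.06% of all regions tested, a background of which the members make up 28399 of 29123 regions, so that both shares had to be nearly equal. Of the other 724 regions, those of 1000 bp or longer, 24 (3.31%) passed, and the difference between them and the members was not tested. From 24 to 66 hpf, 860 members rose and 802 fell (background 2.99 and 2.77%). From 66 to 90 hpf, 10 rose and 7 fell (background 0.0343 and 0.024%), or 3 and 5 with the replicate number as a block. From 24 to 90 hpf, 1657 rose and 1549 fell (background 5.72 and 5.38%). Of the members that differed, 24 hpf was the highest stage for 1167 and the lowest for 1137, 66 hpf the highest for 532 and the lowest for 625, and 90 hpf the highest for 915 and the lowest for 852. Most changes were small, and 758 members (2.67%) differed at least 2-fold between 24 and 90 hpf and 4246 (15.0%) at least 1.5-fold. The rule leaves out any region that missed the caller's threshold in a list, so the size of these changes is partly set by the selection. Replicates of a stage differed by a median of 0.15 to 0.17 on the log2 scale.

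The number of calls changed when a library was left out, and with the measure. Leaving out a library also leaves its stage with a lone library, and the part of that loss was not tested. Without either 24 hpf or either 90 hpf library, no member passed the test over stages (0 members by limma, 6326 to 8122 at an unadjusted p under 0.05). Without either library of 66 hpf, 1526 and 1602 did. On log2(pileup + 1), centred in the same way, 6066 members differed between stages (background 21.3%). From 24 to 66 hpf, 1947 members rose and 2063 fell by pileup (background 6.85 and 7.16%), and from 66 to 90 hpf, 107 rose and 106 fell (background 0.367 and 0.378%). From 24 to 90 hpf, 2816 members then rose and 3537 fell (background 9.85 and 12.5%). Of the 3206 members called from 24 to 90 hpf by fold enrichment, 3078 had the same direction by pileup and 2373 passed the threshold there too. With no centring of libraries, 1831 members rose and 487 fell from 24 to 66 hpf (background 6.37 and 1.69%). From 24 to 90 hpf, 2002 rose and 1191 fell without it (background 6.91 and 4.13%), so the balance of rises and falls rests on the centring.

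The members with the largest changes were taken from those called by fold enrichment from 24 to 90 hpf with replicates not overlapping. Passing by fold enrichment was thus a condition of the choice. They passed by pileup too, but fold enrichment is computed from the pileup, so this is not separate support. The largest fall was a member of 278 bp on NW_024037064.1 (15568388 to 15568665). Its fold enrichment was 16.9 and 18.4 at 24 hpf, 12.3 and 14.7 at 66 hpf, and 3.43 and 4.78 at 90 hpf. It stayed high to late gastrula and dropped at the larva, with a log2 change of -2.17 ± 0.17 (SE, n = 2 per stage, limma adjusted p = 0.00934). Its pileup was 45 and 47 reads at 24 hpf, 27 and 30 at 66 hpf, and 8 and 13 at 90 hpf. A member on NW_024037057.1 (14420514 to 14421010) fell earlier, with fold enrichments of 19.9 and 21.1, then 4.84 and 8.06, then 6.11 and 5.47. The other 3 of the 5 largest falls lay on NW_024037072.1 (37382582 to 37383034), NW_024037059.1 (27529288 to 27529753) and NW_024037059.1 (3704721 to 3705128), with log2 changes of -2.16, -1.90 and -1.84.

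The largest rise was a member of 439 bp on NW_024037048.1 (6731145 to 6731583). Its fold enrichment was 4.41 and 3.07 at 24 hpf, 13.6 and 11.5 at 66 hpf, and 13.0 and 16.7 at 90 hpf. The rise came between blastula and gastrula, and the log2 change from 24 to 90 hpf was 1.95 ± 0.21 (SE, n = 2 per stage, limma adjusted p = 0.00934), or 3.87-fold. Its pileup was 11 and 7 reads at 24 hpf and 38 and 67 at 90 hpf. A member on NW_024037061.1 (5809531 to 5810015) rose later, with fold enrichments of 3.31 and 4.22, then 5.28 and 7.11, then 13.2 and 13.0. The other 3 were on NW_024037067.1 (6570393 to 6570763), NW_024037056.1 (6810445 to 6810984) and NW_024037074.1 (36321028 to 36321538), with log2 changes of 1.90, 1.81 and 1.81. These 10 members were picked for their change, so their values describe the extremes. The 5 members that ranked highest everywhere were picked for a high rank in each library, which leaves little room for change, and their log2 changes from 24 to 90 hpf were -0.06 to 0.18.

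**Figure D5:**
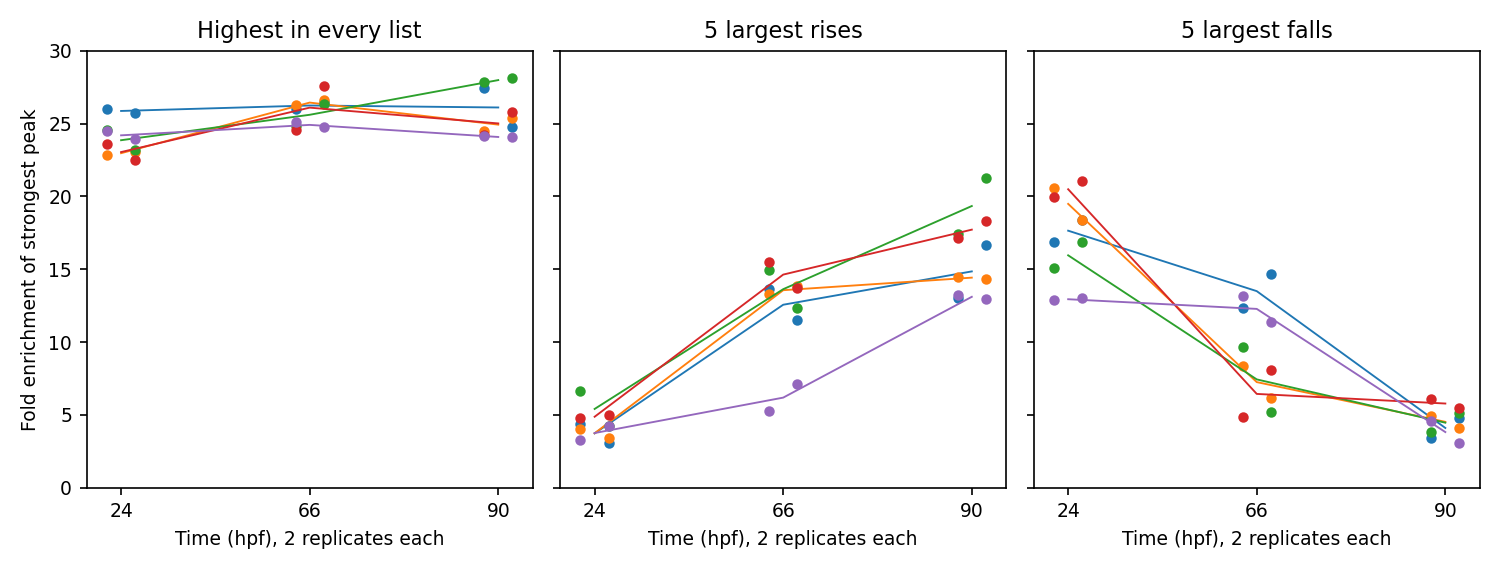
Fold enrichment of the strongest peak (from 0) in each sea star library for the 5 members that ranked highest in every list, the 5 largest rises and the 5 largest falls from 24 to 90 hpf; points are single libraries, colours are members and lines join stage means. The first set stays between 22.5 and 28.1, while the others change by a factor of 3 or more although a peak is listed in every library.

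All-list members could be tied to genes only where the tables at hand of the study pair a region with a gene, so the genes below are examples and their number carries no meaning. The study lists transphyletic elements, stretches alignable between echinoderms and other deuterostome phyla, and chose them with these ATAC-seq data. Members overlapped those paired with sea urchin gnaq, H2A.F/Z, eef1G and HMG1, among others.

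Members at 3 of these elements had no stage difference past the threshold. The eef1G member (LOC119743050, NW_024037049.1, 5822069 to 5822877), at a subunit of a translation elongation factor, had fold enrichments of 15.99 and 14.7, then 17.9 and 18.6, then 16.8 and 18.9. Its summits spanned 24 bp. The H2A.F/Z member (LOC119732127, NW_024037063.1, 4946964 to 4947596), at a histone H2A variant, had 10.7 and 10.8, then 11.2 and 11.9, then 9.18 and 10.4. At gnaq (LOC119729732), a G protein alpha subunit, the member on NW_024037060.1 (2562148 to 2562547) had 7.16 and 6.52, then 8.49 and 8.51, then 9.12 and 8.79. None of these 3 passed the threshold from 24 to 90 hpf (limma adjusted p = 0.443, 0.343 and 0.142).

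The HMG1 element, at a gene for a high mobility group chromatin protein (LOC119727136), spanned a pair of regions called in all 6 lists. The stronger, from 5326989 to 5328299 on NW_024037059.1, was 1311 bp long and thus over the length limit, with fold enrichments of 9.28 to 12.2. The weaker, from 5329087 to 5329440, was a all-list member with fold enrichments of 3.34 and 2.82, then 3.94 and 3.76, then 3.83 and 4.40. Its pileups of 33 to 53 reads were at or above the members' typical level in each library, so its low fold enrichment stood beside a high local coverage. The element at Msx, a homeobox gene, and the one that the study assigns to ARID1A and ARID1B, subunits of the SWI/SNF chromatin remodelling complex, overlapped regions of 1266 and 1731 bp, which the length limit leaves out.

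Among members that the study places at a gene start, 3 core histone genes on NW_024037055.1 show what the choice of measure does. At a gene of the H2B orthogroup (LOC119723405, 2233798 to 2234372), fold enrichment was 5.39 and 5.82 at 24 hpf, 7.35 and 8.40 at 66 hpf, and 8.95 and 9.57 at 90 hpf, a log2 rise of 0.67 ± 0.13 from 24 to 90 hpf (SE, n = 2 per stage, limma adjusted p = 0.0238). Its pileup was 141 and 129 reads at 24 hpf, 119 and 120 at 66 hpf, and 115 and 130 at 90 hpf, and the change by pileup was -0.31 (limma adjusted p = 0.165). The H2A gene (LOC119723403, 2238234 to 2238834) likewise had a fold enrichment that rose by 0.55 (limma adjusted p = 0.0379), and a change by pileup of -0.46 (limma adjusted p = 0.0536). The H3 gene (LOC119723969, 2245505 to 2246307) changed by 0.25 and by -0.46 (limma adjusted p = 0.249 and 0.0531). From 24 to 90 hpf, the H2B and H2A members thus passed by fold enrichment, the H3 member did not, and none of the 3 passed by pileup. In the test over all stages by fold enrichment, H2B passed (limma adjusted p = 0.0454) and H2A did not (limma adjusted p = 0.0698). Core histone genes occur in many near-identical copies, and reads may be divided among them in a way that was not tested.

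Other gene-start members were of varied height. The member at a gene of the fucosyltransferase orthogroup (LOC119723537, NW_024037055.1, 4192374 to 4192843), enzymes that add fucose to glycans, had fold enrichments of 13.1 and 13.0, then 19.9 and 20.2, then 15.2 and 18.8, with summits within 12 bp. At a gene of the RAC and CDC42 orthogroup (LOC119723341, 1432057 to 1432605), small GTPases of the actin cytoskeleton, they were 7.89 and 9.78, then 11.4 and 11.3, then 12.9 and 12.1. That change from 24 to 90 hpf, 0.46 on the log2 scale, missed the threshold (limma adjusted p = 0.0878) and passed it by pileup (0.70, limma adjusted p = 0.0281). The matrilin and collagen VII orthogroup gene (LOC119723520, 3950075 to 3950430), of extracellular matrix proteins, had 6.25 and 5.19, then 6.16 and 9.35, then 9.54 and 10.5 (limma adjusted p = 0.0582 from 24 to 90 hpf). At a neuroligin gene (LOC119723541, 4224843 to 4225161), for a synaptic adhesion protein, values were low throughout, at 5.85 and 5.14, then 5.44 and 6.32, then 3.99 and 4.93. The SERPINB orthogroup gene (LOC119723585, 5128746 to 5129066), for protease inhibitors, had 3.39 to 5.10.

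The same rule found far fewer regions in the purple sea urchin (*Strongylocentrotus purpuratus*, Spur_5.0). There, 2968 of 115459 merged regions (2.57%) had a peak in all 8 lists and were under 1000 bp, and 9337 of 86820 (10.8%) once the 11 hpf libraries were left out, which like the sea star leaves 6 lists. They had medians of 485 bp in width and 128 bp in summit span without 11 hpf, against 432 and 83 bp in the sea star. Density was 10.3 per Mb against 46.9. The difference was not tested, since species, stage and depth of the lists cannot be told apart.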

How the data were processed

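The deposited files were peak lists (narrowPeak) of 14 ATAC-seq libraries, of which the 6 sea star lists carried the results. Per the labels and the study's methods, the authors aligned reads with Bowtie2, removed duplicates with SAMtools, offset read ends for the transposase, kept short fragments and called peaks per replicate with MACS2. For each peak the authors deposited a score, a fold enrichment (a ratio over expected coverage), a −log10 p-value, a −log10 q-value and a summit offset, written as the caller gave them. Coordinates are 1-based.

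Lists were merged in Python 3.11.15 (checked against bedtools 2.31.1), and limma 3.58.1 was fitted in R 4.3.3. With several peaks, the one of highest fold enrichment stood for the member. Pileup and expected coverage were solved from fold enrichment, (pileup + 1)/(expected + 1), and the Poisson p, a step added after seeing the data and tested on simulated data, as were the fits. Tables of read counts were not used here, so no count test was run. Same-numbered replicates deviated together (correlations of 0.195, 0.114 and 0.151 over regions for the 3 stage pairs), and a fit with the replicate number as a block was run.

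Members, gene lists and tests were chosen with earlier results of these data known. Named were the 5 members with the highest lowest percentile, those at the length limit, the 5 largest rises and falls called from 24 to 90 hpf with replicates not overlapping, members at transphyletic elements with a named gene (1 is not reported here), and extreme scaffolds and gaps. Gene starts were added, and chosen from, after their values were seen. No genome of this build was used here.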

Additional observations from a re-analysis of the deposited data

How the results depend on the processing

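The member count was 28399 and stayed between 26773 and 29123 under a stricter q, equal numbers of strongest peaks, a 50% overlap, merging within 100 bp, a longer length limit or none, and 29138 to 30338 with 1 library left out. It was 18032 with a limit of 500 bp and 42783 with 1 replicate of each stage required. The 4 differences between pairs of libraries kept their direction under all alternatives, leaving out each library included (4.003 to 5.06 and 2.02 to 3.23 bp for summits, 3.30 to 4.52 and 1.40 to 2.50 points for height). The differences between across-stage and replicate pairs cannot pass 0.05 in this design (smallest p 0.0667), and no p was computed with a library left out. Of the 2 differences between distant and adjacent stages, the one for summits no longer passed with the median distance (1.25 bp), and both passed under the other alternatives with all 6 libraries. Their p-values come from arrangements that also split replicates, so passing does not show an effect of stage order alone. The gap in nearest-member distance between the highest and lowest 25% of members by height was 4938 bp by fold enrichment, 158.5 bp by −log10 p and -4039 bp by pileup, the last 2 chosen after seeing the data.

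Counts of members past the limma threshold, given as any stage, 66 against 24 hpf higher and lower, 90 against 66 hpf higher and lower, and 90 against 24 hpf higher and lower, moved by over 1.5 times as follows, the rank count of 1127 excepted. By pileup, chosen after seeing the data, they were 6066, 1947, 2063, 107, 106, 2816 and 3537. By within-list rank they were 914, 286, 250, 0, 0, 1127 and 675 (background 3.17, 0.985, 0.876, 0, 0, 3.88 and 2.35%). Among regions at or above the median fold enrichment, a smaller set, they were 1424, 524, 309, 35, 37, 999 and 812 (background 9.9, 3.65, 2.14, 0.24, 0.254, 6.94 and 5.68%). No centring gave 1831 and 487 for 66 against 24 hpf (background 6.37 and 1.69%). For 90 against 66 hpf, no centring and quantile normalization each gave 0 and 2 (background 0 and 0.00687% in both). Single-peak regions gave 2 and 3 there (background 0.00874 and 0.0131%). Such counts of 0 had 1347 to 3080 members at an unadjusted p under 0.05. With the replicate block, 90 against 66 hpf higher was 3, and no other count moved by over 1.5 times. With 1 library left out, where the lone library of its stage is assumed to vary like the others, counts ranged from 0 to 1602 (any stage), 0 to 464 and 0 to 455 (66 against 24 hpf), 0 and 0 (90 against 66 hpf), and 0 to 1601 and 0 to 1488 (90 against 24 hpf). The cause was not tested.

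Absence from a peak list says only that the caller's cutoff was not reached, and does not measure closed chromatin. Pileups of 6 to 173 reads lie behind the values. They are read ends of PCR-amplified fragments and need not be independent molecules.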
